A study of Mus musculus with 9 samples.

Results

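The Hippo pathway genes described here are 10 that were followed through cortical neurogenesis: the transcriptional coactivators Yap1 and Wwtr1 (which encodes TAZ), their DNA-binding partners Tead1, Tead2 and Tead3, the inhibitory kinases Lats1 and Lats2, the Tead cofactor Vgll4, and Ctgf and Cyr61, which are standard readouts of Yap activity in cultured cells. They were taken by gene symbol from a table of 21210 genes, in which the 10 symbols occupy 11 rows because Tead1 is listed under 2 identifiers. All 11 rows passed the filter on low values (3 or more libraries at 10 or above), as did 15828 genes in all.

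Cells came from E14.5 (embryonic day 14.5) lateral cortex of C57BL/6 mouse embryos with reporters for Btg2, a marker of progenitors on their way to making neurons, and for Tubb3, a neuronal tubulin gene. There are 3 groups of 3 libraries, which are 3 stages of 1 lineage: proliferating progenitors (PP, the RFP-negative, Btg2-negative fraction), differentiating progenitors (DP, RFP-positive) and neurons (N, GFP-positive). The genotype label of every sample reads Btg2GFP/Tubb3GFP, whereas the sample titles give RFP for the sort by Btg2, and the groups follow the titles. Each library is a pool of sorted cells from more than 3 embryos of different litters, so a value is an average over many cells of several animals. The PP gate is defined by the absence of a reporter. Values are normalised read counts as deposited by the authors, with library totals of 17531558 to 22076409, highest in N, and an estimated 12700000 to 27600000 reads behind each library.

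In the Hippo pathway, a cascade of kinases ending in Lats1 and Lats2 phosphorylates Yap and TAZ and keeps them out of the nucleus. When the cascade is less active, Yap and TAZ enter the nucleus, bind Tead proteins and raise transcription of growth genes, and Vgll4 competes with them for Tead. In the embryonic brain Yap is best known from the neuroepithelial and radial glial cells that line the ventricle. Phosphorylation and location of the proteins were not measured here, and mRNA levels do not show them.

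Tead proteins recognise the letters GGAATG, or CATTCC on the other strand. The stretches below are the 250 bases before the start of the 4 genes whose levels carry the description that follows, the 2 coactivators, the most abundant Tead gene and the more abundant of the 2 readout genes. They are RefSeq sequence of build GRCm38.p6, printed 5′ to 3′ on the strand of the gene, and capitals mark the motif. Wwtr1 has 2 starts in the RefSeq table and the outer one is shown.
Yap1, chr9:8004597-8004846, minus strand: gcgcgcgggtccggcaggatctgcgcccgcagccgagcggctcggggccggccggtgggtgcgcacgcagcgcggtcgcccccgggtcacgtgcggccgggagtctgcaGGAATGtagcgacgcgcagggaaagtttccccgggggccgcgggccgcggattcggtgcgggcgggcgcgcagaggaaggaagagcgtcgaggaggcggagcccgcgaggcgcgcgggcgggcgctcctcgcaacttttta
Wwtr1, chr3:57575911-57576160, minus strand: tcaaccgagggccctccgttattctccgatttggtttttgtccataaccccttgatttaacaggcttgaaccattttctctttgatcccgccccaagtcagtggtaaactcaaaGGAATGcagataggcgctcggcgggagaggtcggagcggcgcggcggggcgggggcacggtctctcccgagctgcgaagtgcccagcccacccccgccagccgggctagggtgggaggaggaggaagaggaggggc
Tead2, chr7:45215542-45215791, plus strand: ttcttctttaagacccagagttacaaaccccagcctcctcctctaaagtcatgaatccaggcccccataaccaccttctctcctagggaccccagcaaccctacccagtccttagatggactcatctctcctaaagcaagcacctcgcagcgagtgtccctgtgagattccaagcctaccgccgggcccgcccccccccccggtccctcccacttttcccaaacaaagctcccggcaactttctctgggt
Cyr61 (listed as Ccn1), chr3:145649986-145650235, minus strand: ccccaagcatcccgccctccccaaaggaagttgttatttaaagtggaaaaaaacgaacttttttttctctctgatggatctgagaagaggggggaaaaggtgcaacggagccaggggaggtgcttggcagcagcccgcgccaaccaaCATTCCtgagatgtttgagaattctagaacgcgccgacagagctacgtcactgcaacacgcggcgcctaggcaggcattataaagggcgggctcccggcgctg

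RefSeq promoters were matched for 8 of the 10 genes, not for Tead1 and Ctgf. Searched on both strands, the motif occurred in this window for 5 of the 8, namely Yap1, Wwtr1, Tead3, Vgll4 and Cyr61, and in 12.6% of all 32851 windows of the same length. Its first base lay 103 bases before the start of Cyr61, 141 before Yap1 and 136 before Wwtr1. The letters were not in the windows of Tead2, Lats1 and Lats2. For each of the 8 genes only the outer start was counted, whereas the 32851 windows include every listed start of a gene. Besides Wwtr1, Tead3 has 3 listed starts and Lats2 has 2. A match describes the letters only, since binding was not measured.

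As sums, the radial glial markers were highest in PP, those of intermediate progenitors in DP and those of neurons in N. Summed over 9 radial glial markers, the normalised counts ranged from 107682 to 125023 in PP, 49524 to 72002 in DP and 6228 to 7580 in N. The 6 markers of intermediate progenitors summed to 14140 to 18523 in PP, 46738 to 58308 in DP and 10076 to 13557 in N. Of these 6, Neurod1 alone was not called lower in N against DP, at 4251, 2730 and 2644 in N and 2585, 2873 and 2413 in DP. The 7 neuronal markers summed to 1768 to 5425 in PP, 29546 to 34648 in DP and 144552 to 173505 in N. In RNA from pooled cells, fewer cells of a type and less RNA per cell cannot be told apart.

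The coactivators Yap1 and Wwtr1 were lower at each stage than at the one before, and most of the loss came with the passage to neurons. Yap1 was at 4330, 4331 and 4037 normalised counts in PP, at 3074, 2035 and 2163 in DP, and at 94, 163 and 154 in N. No library of one stage overlapped with another stage, and DP replicate 1 lay nearer to PP than the other DP libraries did. In limma's test with Benjamini-Hochberg adjustment over all 15828 genes, Yap1 fell by 0.83 ± 0.22 (log2, SE) in DP against PP, with an adjusted p of 0.0239. That first call is thin: with any 1 PP library, DP replicate 2 or DP replicate 3 left out, the adjusted p was 0.0553 to 0.0944, and over all 18 alternative settings it ranged from 2.94e-05 to 0.0944. In N against DP, Yap1 fell by 4.15 ± 0.22 (17.8-fold lower, adjusted p = 5.06e-07).

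Wwtr1 was at 3055, 3323 and 2616 normalised counts in PP, at 2237, 1558 and 1371 in DP, and at 24, 22 and 22 in N. Again the 3 stages did not overlap, and the N libraries were nearly equal. Wwtr1 fell by 0.82 ± 0.18 in DP against PP (adjusted p = 0.00932), and it kept this call when any 1 library was left out. It fell by 6.16 ± 0.18 in N against DP (71.3-fold lower, adjusted p = 4.99e-08), which ranks 19 among all tested genes from the largest fall. Counted as estimated reads, Wwtr1 in N came to 70 reads and stood at 1.35% of its DP level (95% exact interval 1.05% to 1.7%), which covers counting error only.

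The 2 coactivators held like shares in both progenitor groups and unlike ones in neurons. Per kilobase of transcript, a scale on which levels of different genes can be set side by side, Yap1 made up 61.9% ± 1.99 of their summed level in PP, 61.9% ± 2.29 in DP and 86.7% ± 4.28 in N (SD, n = 3 each). The rest was Wwtr1. Each of the N libraries, at 81.8%, 89.5% and 88.9%, had a higher Yap1 share than any progenitor library.

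Among the DNA-binding partners, none passed the test in DP against PP, and all fell in N. Tead2 was at 7301, 7884 and 8465 normalised counts in PP, at 7756, 8238 and 8776 in DP, and at 785, 555 and 617 in N. The PP and DP libraries interleaved, and the N libraries lay far below both. In DP against PP the log2 difference was 0.07 (95% interval -0.22 to 0.36, adjusted p = 0.79), and with libraries scaled to equal totals it was -0.01. In N against DP, Tead2 fell by 3.67 ± 0.13 (12.8-fold lower, adjusted p = 8.32e-08).

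Tead1, under its longer row of 11235 bases, was at 5192, 5119 and 4503 normalised counts in PP, at 6294, 5651 and 5288 in DP, and at 1757, 1841 and 1737 in N. All DP libraries were above all PP libraries. The difference in DP against PP was 0.22 ± 0.09 (log2, SE), with an adjusted p of 0.121, and of 0.0106 in the fit with the replicate number as a block, which takes out differences shared by libraries of equal number. Over 18 alternatives its adjusted p ranged from 0.0106 to 0.326. Tead1 fell in N against DP by 1.69 ± 0.09 (3.22-fold lower, adjusted p = 5.41e-07).

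The shorter Tead1 row, of 3848 bases, gave 2447, 2137 and 1931 normalised counts in PP, 2895, 2435 and 2333 in DP, and 825, 795 and 753 in N. It stood at 0.417 to 0.471 of the longer row in every library, so the 2 rows move together and are not separate evidence; whether they share reads was not tested. In DP against PP the shorter row differed by 0.23 (adjusted p = 0.183, and 0.00821 with the block, within a range of 0.00821 to 0.453 over 18 alternatives). In N against DP it fell by 1.68, with an adjusted p of 2.2e-06.

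Tead3 was the least abundant of Tead1, Tead2 and Tead3. It was at 975, 1026 and 1406 normalised counts in PP, 917, 821 and 1032 in DP, and 192, 202 and 229 in N. Its PP and DP libraries overlapped, and its N libraries did not overlap with either. The difference in DP against PP was -0.29 (95% interval -0.64 to 0.07, adjusted p = 0.238, and 0.0203 with the block, within a range of 0.0203 to 0.615 over 18 alternatives). In N against DP, Tead3 fell by 2.14 ± 0.16 (4.42-fold lower, adjusted p = 3.45e-06).

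Tead2 made up 70.7% ± 1.03 of the summed Tead level per kilobase in PP, 71.0% ± 2.31 in DP and 40.3% ± 4.88 in N (SD, n = 3 each), counting Tead1 by its longer row. Tead1 made up 18.5% ± 2.44 in PP, 20.6% ± 2.42 in DP and 46.0% ± 3.7 in N. In both shares DP overlapped with PP, while N overlapped with neither. Tead3 made up 9.86%, 9.81% and 12.6% in PP, 8.58%, 7.61% and 9.08% in DP, and 13.7% ± 1.77 in N (SD, n = 3), so every DP library lay below every PP library. By the longer row Tead1 overlapped with Tead2 in N, at 158 ± 4.91 and 140 ± 25.5 counts per kilobase. By the shorter row, at 206 ± 9.4, Tead1 lay above Tead2 in every N library, so their order in neurons depends on the row.

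The balance of coactivators to Tead genes had another course. Yap1 plus Wwtr1, divided by Tead1 to Tead3, all per kilobase, gave ratios of 0.747, 0.73 and 0.598 in PP, 0.496, 0.332 and 0.312 in DP, and 0.0749, 0.133 and 0.123 in N. The 3 stages did not overlap. The summed Tead level averaged 2390 ± 143 counts per kilobase in PP and 2490 ± 83.5 in DP, while that of the coactivators averaged 1640 ± 113 in PP and 942 ± 228 in DP (SD, n = 3 each). In N both sums were low, at 345 ± 20.5 for the Tead genes and 37.6 ± 8.76 for the coactivators.

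**Figure D1:**
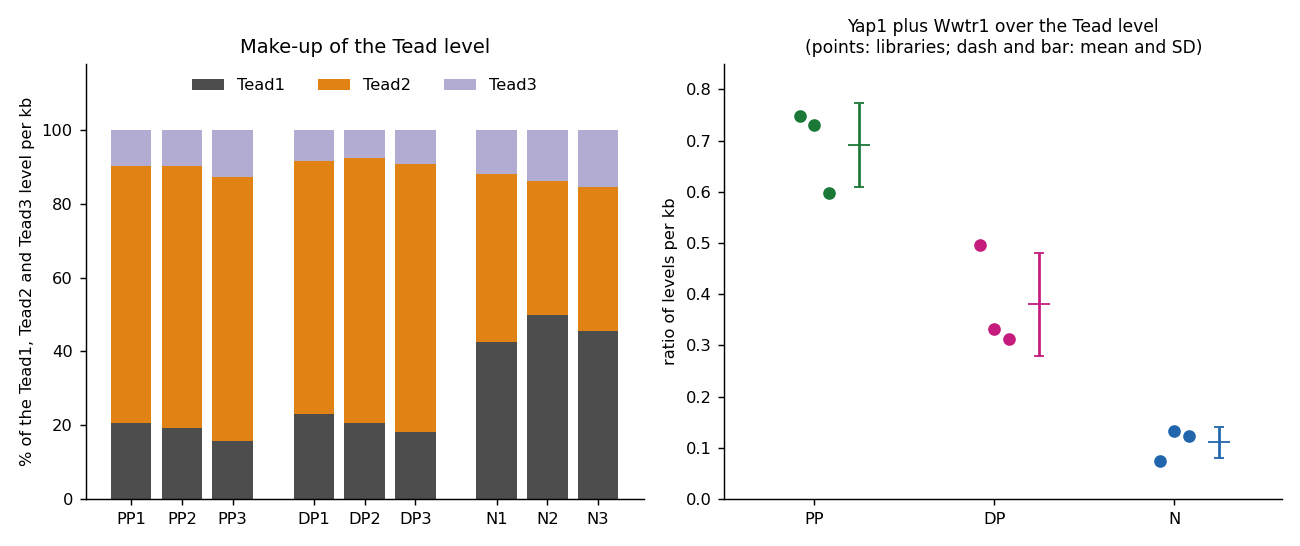
Left, share in percent of Tead1, Tead2 and Tead3 in their summed level per kilobase, 1 bar per library in the stage order PP, DP, N; right, ratio of Yap1 plus Wwtr1 to the summed Tead level per kilobase, with a point per library and the mean and SD of each stage (n = 3). Tead2 takes about equal shares in PP and DP and a smaller one in N, whereas the ratio already differs between PP (mean 0.692) and DP (mean 0.38).

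Lats1, Lats2 and Vgll4 changed less than the other members in N against DP. Lats1 was at 2969, 2716 and 2231 normalised counts in PP, at 3227, 2975 and 2653 in DP, and at 3081, 2415 and 2332 in N, and the 3 stages overlapped. It passed the test in no comparison: the log2 differences were 0.17 in DP against PP (95% interval -0.16 to 0.49, adjusted p = 0.472), -0.18 in N against DP (-0.51 to 0.14, adjusted p = 0.315) and -0.02 in N against PP (-0.34 to 0.31, adjusted p = 0.931). With the block, the first had an adjusted p of 0.0432 (range over 18 alternatives 0.0432 to 0.859) and the second of 0.0183 (range 0.0183 to 0.628).

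Lats2 was at 1014, 986 and 811 normalised counts in PP, at 821, 564 and 449 in DP, and at 560, 383 and 402 in N. Replicate 1 was the highest library in all 3 stages, and neighbouring stages overlapped. The log2 differences were -0.65 in DP against PP (95% interval -1.17 to -0.14, adjusted p = 0.0688) and -0.42 in N against DP (-0.94 to 0.10, adjusted p = 0.153). With the block the adjusted p was 0.00148 (range over 18 alternatives 0.00148 to 0.218) and 0.0088 (range 0.0088 to 0.455). Over both steps, in N against PP, Lats2 fell by 1.08 ± 0.23 (adjusted p = 0.00258). Lats1 took 68.7% ± 0.764 of the summed Lats level per kilobase in PP, 79.4% ± 3.51 in DP and 82.0% ± 1.01 in N (SD, n = 3 each), with no overlap between PP and the later stages.

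Vgll4, the cofactor that competes with Yap for Tead, was at 1882, 1550 and 1424 normalised counts in PP, at 2042, 1669 and 1578 in DP, and at 1101, 756 and 794 in N. Its PP and DP libraries overlapped, with a log2 difference of 0.12 (95% interval -0.26 to 0.51, adjusted p = 0.689). It fell by 1.01 ± 0.17 in N against DP (2.01-fold lower, adjusted p = 0.000846). Set against the coactivators, whose fall was larger, Vgll4 per kilobase was 0.237 ± 0.029 of Yap1 plus Wwtr1 in PP, 0.457 ± 0.0445 in DP and 6.12 ± 3.03 in N (SD, n = 3 each). The ratio in N ranged from 4.16 to 9.61.

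Ctgf and Cyr61 encode secreted matrix proteins of the CCN family. Cyr61 was at 3478, 3997 and 4259 normalised counts in PP, at 2113, 1182 and 1506 in DP, and at 19, 29 and 16 in N. The stages did not overlap. Cyr61 fell by 1.32 ± 0.25 in DP against PP (adjusted p = 0.00471) and by 6.17 ± 0.25 in N against DP (71.8-fold lower, adjusted p = 1.34e-07). In N against PP it fell by 7.49 on the log2 scale, 180-fold lower (adjusted p = 2.76e-08).

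Ctgf was less abundant, at 231, 344 and 341 normalised counts in PP, at 151, 119 and 86 in DP, and at 1, 2 and 3 in N. Its stages did not overlap either. It fell by 1.37 ± 0.33 in DP against PP (adjusted p = 0.0145), a call that was lost without PP replicate 2, PP replicate 3 or DP replicate 3 (adjusted p = 0.0578 to 0.0606, within a range of 0.000885 to 0.0606 over 18 alternatives). An estimated 6 reads in the 3 N libraries stood against 358 in DP, a ratio of 1.66% (95% exact interval 0.605% to 3.65%, counting error only). In limma's test Ctgf fell in N against DP with an adjusted p of 1.11e-06. Gm15270, a gene on the opposite strand whose exons overlap those of Ctgf, was at 19, 32 and 40 in PP, at 10, 6 and 9 in DP, and at 0, 1 and 1 in N; the libraries are strand-specific, but no source used here states the strand setting of the counting, so reads of the 2 genes cannot be told apart.

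**Figure D2:**
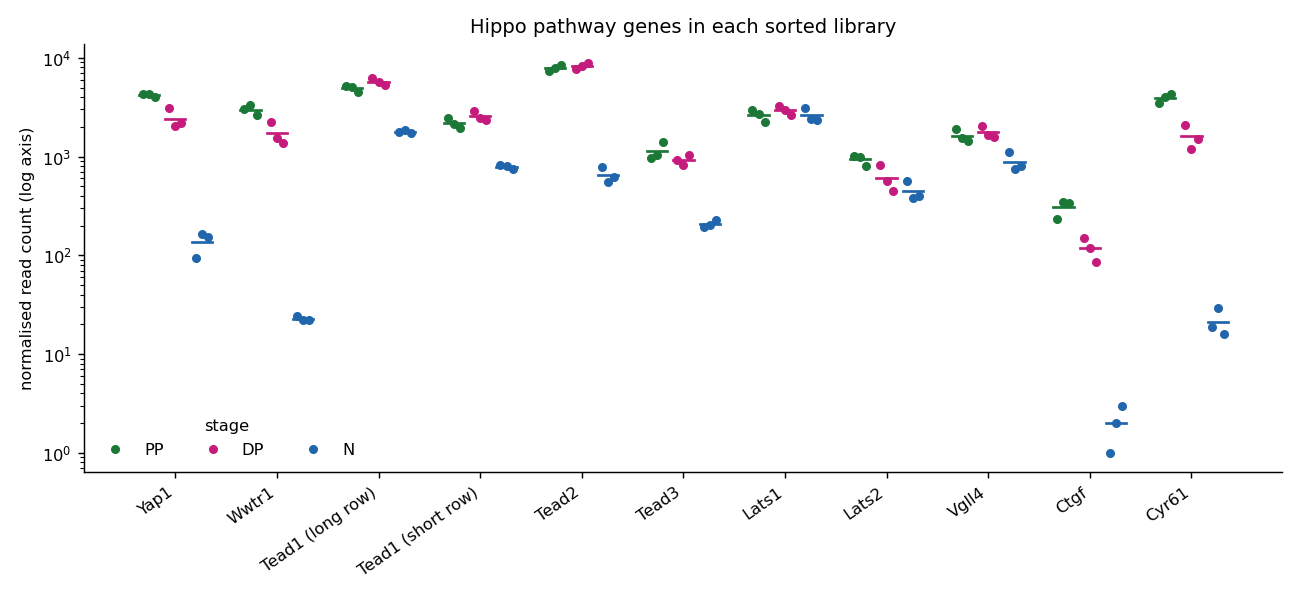
Normalised read counts (log axis) of the 11 rows in each of the 9 libraries, with PP, DP and N side by side for each gene and a dash at the mean of each stage. Cyr61, Wwtr1, Ctgf and Yap1 lie far lower in N than in PP, while Lats1 stays between 2231 and 3227 in every library.

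Of the 11 rows, 4 fell in DP against PP (Yap1, Wwtr1, Ctgf and Cyr61) and none rose. The background for that count is 11.1% of all tested genes lower, 13.8% higher and 24.9% called in either direction. By the libraries themselves, 4 rows lay below PP in every DP library and 1, the longer Tead1 row, above it, against 18.8% and 18.9% of all tested genes. In the fit with the block, 6 rows fell and 3 rose, on a background of 22.0% lower, 24.0% higher and 46.0% called. In N against DP, 9 rows fell and none rose, with Lats1 and Lats2 not passing, against 26.4% of all genes lower, 27.6% higher and 54.0% called. The same 9 rows had every N library below every DP library, as had 29.5% of all tested genes, while 31.2% had every one above. With the block all 11 rows fell, on a background of 35.5% lower, 35.8% higher and 71.3% called, and with libraries scaled to equal totals all 11 fell too. In N against PP, 10 rows fell and none rose, with Lats1 not passing, against 31.1% of all genes lower, 32.2% higher and 63.3% called. The median change of the 11 rows was -0.29 in DP against PP, -2.14 in N against DP and -2.43 in N against PP, beside -0.02, -0.01 and -0.02 over all tested genes. Equal-total scaling shifted the median over all genes to -0.09, -0.22 and -0.30 in these comparisons, and gave 3383 genes higher and 5588 lower in N against DP (4368 and 4183 as deposited), and 3903 higher and 6607 lower in N against PP (5099 and 4924 as deposited).

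Falling at both steps was shared by the 4 rows Yap1, Wwtr1, Ctgf and Cyr61 and by 902 of all tested genes, or 5.7%. The difference between the steps was tested directly, as the change in N against DP minus the change in DP against PP. By the test it was called below 0 for 9 rows and above 0 for none. The background was 16.2% of all tested genes called below 0, 15.2% above 0 and 31.4% in either direction. Wwtr1 had the largest difference, -5.33 ± 0.31 on the log2 scale (adjusted p = 9.67e-06), followed by Cyr61 at -4.84 ± 0.43 (adjusted p = 5.29e-05), Ctgf at -3.97 (adjusted p = 0.000675), Tead2 at -3.74 ± 0.22 (adjusted p = 9.76e-06) and Yap1 at -3.32 ± 0.38 (adjusted p = 0.0002). The difference for Vgll4 was -1.13 ± 0.30 (adjusted p = 0.0176), which became 0.0688 without DP replicate 1, within a range of 2.12e-05 to 0.0688 over 17 alternatives. Lats1 (-0.35, adjusted p = 0.344) and Lats2 (0.23, adjusted p = 0.743) did not pass. For Lats1 the adjusted p was 0.0169 with the block, within a range of 0.0169 to 0.616 over 17 alternatives.

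**Figure D3:**
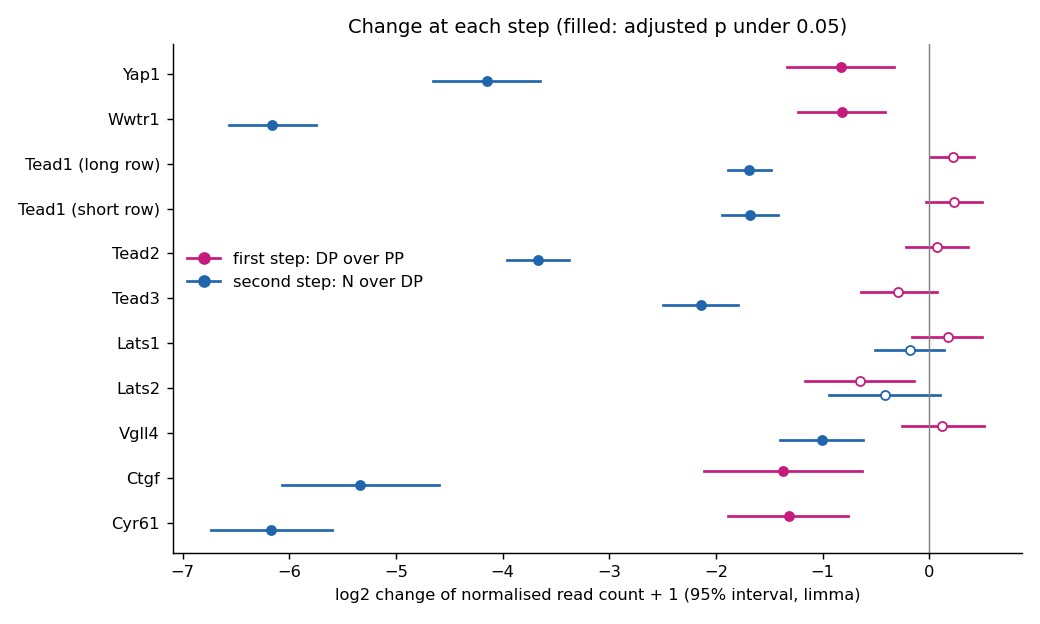
Log2 change with its 95% interval from limma for each row, in magenta for DP over PP and in blue for N over DP; filled points have an adjusted p under 0.05. The coactivators and the CCN genes are filled and left of 0 at both steps, the Tead genes and Vgll4 at the second step, and Lats1 and Lats2 at neither.

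The order of levels per kilobase differed between the stages. In PP, Cyr61 and Tead2 were highest, at 1930 ± 196 and 1690 ± 125 counts per kilobase, and their libraries overlapped. Yap1 followed at 1020 ± 40.7, apart from its neighbours, and Ctgf was lowest, with libraries at 92.8 to 138 (SD, n = 3 each). In DP, Tead2 stood alone at the top at 1770 ± 109, and Cyr61 came next at 789 ± 233, overlapping with the shorter Tead1 row. In N, Lats1 was highest at 357 ± 56.2, apart from Vgll4 at 213 ± 45.5, and the 4 lowest were Yap1 at 32.9 ± 9.0, Cyr61 at 10.5 ± 3.36, Wwtr1 at 4.74 ± 0.242 and Ctgf at 0.803 ± 0.402, none of which overlapped with the next.

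Other markers moved with the first step as well. The 9 radial glial markers summed to 72002, 50858 and 49524 in DP against 125023, 122254 and 107682 in PP. By the test 6 of the 9 fell, or 66.7%, against 11.1% of all tested genes, and Sox2, Hes5 and Prom1 did not pass. DP replicate 1, the highest of the DP libraries in the radial glial sum, was also the highest DP library in Yap1, Wwtr1, Ctgf and Cyr61. The PP libraries did not share this order. PP replicate 1 was the highest in the sum but the lowest in Ctgf and Cyr61, and Wwtr1 was highest in PP replicate 2. Yap1 was nearly equal in PP replicates 1 and 2, at 4330 and 4331. Mural cell markers summed to 180 to 249 in DP against 624 to 1221 in PP, and endothelial markers to 206 to 274 in DP against 203 to 708 in PP. Kdr gave much of the endothelial sum in DP, at 120, 123 and 157, and was at 62, 76 and 187 in PP. The median change of the 8 tested endothelial markers in DP against PP was -1.35. Of these, Flt1, Tie1, Cldn5 and Eng had passed the filter only with the PP libraries, in which they were higher. The filter thus favoured a negative median, and nothing is read from it.

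Meningeal markers summed to 82 to 172 in DP against 247 to 2998 in PP, where PP replicate 3 was the highest, although the meninges had been removed before sorting. Red blood cell genes summed to 212 to 2022 in DP against 102685 to 255832 in PP. Immediate early genes, which rise when tissue is dissociated, summed to 8366 to 13578 in DP against 14120 to 15688 in PP. Jun gave most of that sum, at 12291, 11290 and 12452 in PP and 7610, 4429 and 5075 in DP. By limma's test Jun was the only gene of this list to fall in DP against PP, and Fos the only one to rise. Fos was at 502, 385 and 342 in PP and 1369, 925 and 659 in DP. The median change of the list was 0.28, beside -0.02 over all tested genes. In N, the sums were 62 to 110 for endothelium, 44 to 54 for mural cells, 11 to 48 for meninges, 190 to 273 for red blood cells and 5448 to 6757 for immediate early genes. Microglial markers summed to 162 to 231 in PP, 82 to 123 in DP and 26 to 37 in N. No marker of these lists that the table holds was at 0 in all libraries. The part of these cells in the values of Yap1, Wwtr1, Ctgf and Cyr61 was not tested.

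Genes of the kinase cassette around Lats1 and Lats2 were called in both directions, at shares mostly near those of all genes. Of 23 genes for the cassette and its upstream regulators, all tested, 5 rose and 3 fell in DP against PP, 7 rose and 6 fell in N against DP, and 9 rose and 5 fell in N against PP. The shares higher were 21.7%, 30.4% and 39.1%, against 13.8%, 27.6% and 32.2% of all tested genes, and the shares lower 13.0%, 26.1% and 21.7%, against 11.1%, 26.4% and 31.1%. The medians were 0.06, 0.13 and 0.21, beside -0.02, -0.01 and -0.02 over all genes. With equal totals, 5 rose and 8 fell in N against DP, 7 rose and 10 fell in N against PP, and 4 went each way in DP against PP. Over all 15828 tested genes this scaling gave 3383 higher and 5588 lower, 3903 and 6607, and 1885 and 2255 in the same order. The list medians were then -0.09, -0.08 and -0.01, beside -0.22, -0.30 and -0.09 over all genes. With the block, 10 rose and 4 fell in DP against PP, against 24.0% of all tested genes higher and 22.0% lower in that fit. In N against DP 12 rose and 7 fell with the block, against 35.8% higher and 35.5% lower.

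Nf2 (Merlin), a membrane scaffold that promotes Lats activation, was at 5613, 5613 and 5761 normalised counts in N against 3302, 3595 and 3432 in DP, and rose by 0.72 ± 0.07 (adjusted p = 2.52e-05). Taok3, a kinase acting upstream of the Mst kinases, was at 1810, 1890 and 1838 in N against 266, 380 and 327 in DP, and rose by 2.52 ± 0.14 (adjusted p = 6.13e-07). No N library overlapped with a DP library for either gene. Csnk1e, a casein kinase that marks phosphorylated Yap for degradation, rose at both steps, by 0.64 ± 0.06 in DP against PP (adjusted p = 0.000137) and by 0.50 ± 0.06 in N against DP (adjusted p = 0.000115).

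Other core components fell. Wwc2, of the Kibra family, fell by 1.12 ± 0.15 in DP against PP (adjusted p = 0.000811) and by 0.67 in N against DP (adjusted p = 0.00445). The scaffold Sav1 fell by 0.88 and the Lats cofactor Mobkl1b (Mob1a) by 1.17 in N against PP (adjusted p = 8.22e-05 and 4.18e-05). Rassf1, a scaffold of the Mst kinases, fell by 0.91 in the same comparison (adjusted p = 1.43e-05), Wwc2 by 1.79 (adjusted p = 6.04e-06) and Stk3 (Mst2) by 0.44 (adjusted p = 0.0102), which makes up the 5. Stk3 rose by 0.48 in DP against PP (adjusted p = 0.0201) and fell by 0.92 in N against DP (adjusted p = 0.000168). The remaining genes that rose in DP against PP were the kinases Map4k4, by 0.63 (adjusted p = 0.00728), and Stk38, by 0.35 (adjusted p = 0.0294, and 0.0677 with equal totals), beside Taok3, by 0.49 (adjusted p = 0.0298). Leaving out DP replicate 2 or DP replicate 3 ended the first-step calls of Stk3, Stk38 and Taok3, as some other single libraries did, with adjusted p of 0.0534 to 0.0785, 0.0793 to 0.108 and 0.0508 to 0.103. Sav1 also fell in DP against PP, by 0.41 (adjusted p = 0.0241), a call lost without PP replicate 1, PP replicate 2, DP replicate 2 or DP replicate 3 (adjusted p = 0.065 to 0.0882). The other 2 that fell at the first step were Wwc2 and Rassf1, Rassf1 by 0.46 (adjusted p = 0.00444).

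Regulators at cell junctions and in apical polarity mostly fell in neurons. Of 22 genes listed, 20 were tested, Fat2 being below the filter and Dchs2 not found under that symbol. In DP against PP 4 rose and 5 fell, in N against DP 4 rose and 13 fell, and in N against PP 4 rose and 14 fell. The shares higher were 20.0% in each comparison, and the shares lower 25.0%, 65.0% and 70.0%, beside the shares of all genes given above for the kinase list. The medians were -0.31, -1.63 and -1.09, against -0.02, -0.01 and -0.02 over all genes. With the block 6 rose and 12 fell in DP against PP, against 24.0% of all tested genes higher and 22.0% lower in that fit.

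Jub (Ajuba), a junction protein that restrains Lats, was at 3492, 3225 and 3219 normalised counts in PP, 1807, 1048 and 1112 in DP, and 24, 31 and 13 in N, with no overlap. It fell by 1.37 ± 0.30 in DP against PP (adjusted p = 0.0103) and by 5.84 ± 0.30 in N against DP (adjusted p = 4.38e-07). The apical polarity gene Crb2 fell by 5.30 ± 0.20 in N against DP (adjusted p = 1.04e-07), and its partner Mpp5 (Pals1) by 2.26 ± 0.10 (adjusted p = 1.79e-07). Both genes also fell in DP against PP, by 1.01 and 0.63 (adjusted p = 0.0057 and 0.00176), as did Wtip, a relative of Ajuba, by 0.62 (adjusted p = 0.0088).

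The 4 that rose in DP against PP were Amot, which can hold Yap outside the nucleus, by 1.13 (adjusted p = 0.00302), the polarity genes Crb1 by 0.92 (adjusted p = 0.00377) and Pard3 by 0.78 (adjusted p = 0.000325), and the protocadherin Dchs1 by 0.66 (adjusted p = 0.00392). In N against DP, the risers were the atypical cadherins Fat3, by 1.82 (adjusted p = 1.68e-05), and Fat4, by 1.74 (adjusted p = 7.4e-05), Dchs1, the binding partner of Fat4, by 0.46 (adjusted p = 0.0102), and Fjx1, by 0.59 (adjusted p = 0.0321, lost without DP replicate 2 or 3 or N replicate 1 or 2, at 0.0658 to 0.114). With equal totals the calls of Dchs1 and Fjx1 in N against DP were lost, at 0.24 and 0.38 (adjusted p = 0.13 and 0.16). In N against PP the 4 were Fat3, Fat4, Dchs1 and Amot, by 2.24, 1.22, 1.12 and 0.95 (adjusted p = 2.83e-06, 0.000574, 3.14e-05 and 0.00217). Crb1 and Pard3 fell in N against DP, by 1.89 (adjusted p = 1.22e-05) and 1.78 (adjusted p = 3.83e-07).

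Among genes known as Yap and TAZ targets in cultured cells, more fell in neurons than rose. Of 19 further targets 18 were tested, Ankrd1 not being found under that symbol. In DP against PP 3 rose and 4 fell, in N against DP 5 rose and 12 fell, and in N against PP 3 rose and 12 fell, with medians of -0.30, -0.80 and -0.89, against -0.02, -0.01 and -0.02 over all genes. The shares higher were 16.7%, 27.8% and 16.7%, against 13.8%, 27.6% and 32.2% of all tested genes, and the shares lower 22.2%, 66.7% and 66.7%, against 11.1%, 26.4% and 31.1%. Foxf2, in N against DP, and Nt5e, in N against PP, had passed the filter only with the progenitor libraries in which they were higher. With the block, 3 rose and 8 fell in DP against PP, against 24.0% of all tested genes higher and 22.0% lower in that fit. Amotl2, Ptpn14 and Fjx1 stand in both this list and the junction list.

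Axl, a receptor tyrosine kinase, was at 1657, 2127 and 2179 normalised counts in PP, 1011, 896 and 1025 in DP, and 51, 47 and 32 in N, with no overlap. It fell by 1.02 ± 0.18 in DP against PP (adjusted p = 0.00388) and by 4.49 ± 0.18 in N against DP (adjusted p = 1.37e-07). The secreted protein gene Ccdc80 fell by 1.77 ± 0.31 in DP against PP (adjusted p = 0.00319) and by 5.70 in N against DP (adjusted p = 5.85e-07). F3 (tissue factor) and Arhgef17 were the others to fall in DP against PP, by 2.00 (adjusted p = 0.000445) and 0.33 (adjusted p = 0.0164, and 0.064 to 0.0661 without DP replicate 2 or 3). Ptpn14, a phosphatase that binds Yap, fell by 3.00 ± 0.21 in N against DP (adjusted p = 3.03e-06).

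Other targets went the opposite way. Gadd45a, a stress response gene, rose by 1.40 in DP against PP (adjusted p = 0.000511) and fell by 1.19 in N against DP (adjusted p = 0.000338). Nuak2, a kinase of the AMPK family, rose by 0.49 (adjusted p = 0.0243, lost without PP replicate 1 or 3 or DP replicate 2 or 3, at 0.0665 to 0.0866) and fell by 0.84 (adjusted p = 0.000499) in the same comparisons. Igfbp3, which binds insulin-like growth factors, was at 557, 796 and 653 normalised counts in N against 37, 23 and 23 in DP, with no overlap, and rose by 4.57 ± 0.25 (adjusted p = 5.93e-07). Rbms3, an RNA-binding protein gene, rose at both steps, by 0.76 in DP against PP (adjusted p = 0.0446, 0.0571 with equal totals, and lost in 7 of the 9 fits without 1 library, at 0.0536 to 0.15) and by 2.03 in N against DP (adjusted p = 6.99e-05). Crim1, Myof and, as described above, Fjx1 also rose in N against DP, Crim1 by 1.05 (adjusted p = 8.91e-05) and Myof by 1.77 (adjusted p = 0.0148, and 0.0523 to 0.0633 without N replicate 2 or 3). In N against PP the 3 that rose were Igfbp3, Rbms3 and Crim1, by 3.97, 2.79 and 0.81 (adjusted p = 8.26e-07, 5.79e-06 and 0.00036).

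**Figure D4:**
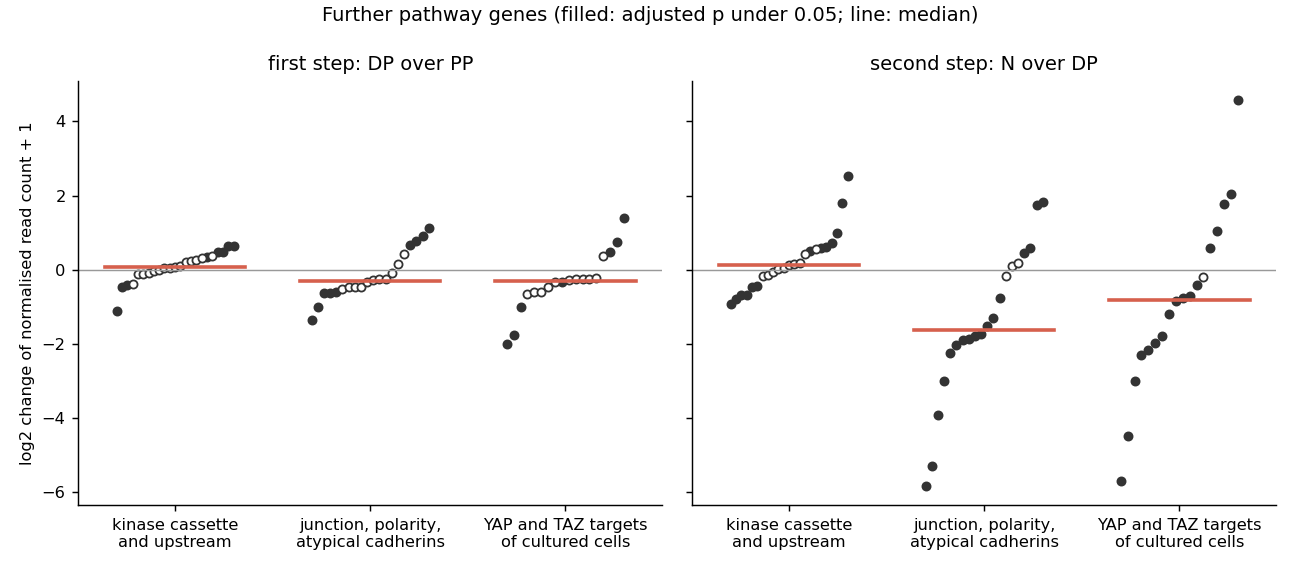
Log2 change of each tested gene of 3 pathway lists, DP over PP on the left and N over DP on the right; filled points have an adjusted p under 0.05 and the red line is the median of the list. The kinase cassette straddles 0 at both steps (medians 0.06 and 0.13), whereas the junction list has its median at -1.63 at the second step.

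Relatives of the Tead, Vgll and CCN genes were scarce. Tead4 was at 1 to 11 normalised counts in the 9 libraries and Vgll2 at 0 to 13, both below the filter, and Vgll1 was not found under that symbol. Vgll3 was at 21, 20 and 9 in PP, 7, 8 and 11 in DP, and 4, 2 and 0 in N. It passed the filter only through PP replicates 1 and 2 and DP replicate 3, so no test of its difference is given. Of the other CCN genes, Wisp1 was at 21, 17 and 18 in DP against 35, 56 and 61 in PP and fell by 1.36 ± 0.28 (adjusted p = 0.00745). Wisp3 was at 12, 10 and 10 in N against 4, 1 and 3 in DP, and passed the filter only through the N libraries, so again no test is given. Nov and Wisp2 did not pass the filter; Nov was at 12, 7 and 12 in N and at 0 in every DP library.

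The genes nearest to 3 of the members were found by the root mean square difference of their centred log2 values over the 9 libraries, as a description. Nearest to Yap1 were AC101968.1 (0.19), 9430076C15Rik (0.23) and Cdca7l (0.23), followed by the tensins Tns3 (0.25) and Tns1 (0.26), which link integrins to actin. Among the 5 nearest to Tead2 were Rrm2, a subunit of ribonucleotide reductase (0.12), Plk4, the kinase of centriole duplication (0.13), and Mad2l1, of the spindle checkpoint (0.14). Among the 5 nearest to Cyr61 were Alpl, an alkaline phosphatase (0.23), Jub, the junction protein described above (0.24), and Hes1, a Notch target in radial glia (0.24). Wwtr1 stood at rank 15 in likeness to Cyr61, Ctgf at rank 40 and Yap1 at rank 239. In likeness to Yap1, Tead2 stood at rank 444, Ctgf at 564, Wwtr1 at 898 and Cyr61 at 1134.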

How the data were processed

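Poly-A RNA of sorted E14.5 cortical cells was made into strand-specific libraries, per the labels' protocols. The submitters' processing notes name build mm9 and the tools DESeq 1.8.1, bedtools 2.11, BWA and CASAVA 1.8.0, without roles. The authors deposited a normalised score per gene and library (rounded normalised read counts, Ensembl version 61 per the file headers), with gene lengths as an other column, their own fold as a ratio and an adjusted p-value, which were not used for the results. Read depths were estimated from the spacing of the deposited values, so no count model was fitted.

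Values were tested with limma 3.58.1 (R 4.3.3, intensity trend) on log2(value + 1), in 1 two-sided fit of all 9 libraries to 3 group means (6 residual degrees of freedom), with Benjamini-Hochberg adjustment over 15828 genes and a threshold of 0.05; changes of low genes are understated on this scale. The fit was tested on simulated data with independent libraries, so that test did not cover the pairing given next. Replicate numbers pair the libraries: deviations from the group means correlated at 0.507 to 0.767 for all 9 pairs of equal number, so the fit with the number as a block (4 residual degrees of freedom) is given where it changes a member's call or moves a pathway list's count by over 1.5 times. Pairs of replicates 2 and 3 from different groups also correlated, at 0.272 to 0.428. Unequal pairs with replicate 1 were at -0.64 to -0.545, so replicate 1 stood apart from the others. The p-values measure the spread between these libraries. Members and lists were chosen with earlier results of these data known. Named beyond the 10 members are the 4 genes of each list with the smallest adjusted p, the genes of any count of 5 or fewer, and genes nearest in pattern to Yap1, Tead2 and Cyr61 (of the 5 nearest each, not all are named); some genes that this rule selects are not reported here. Tead2 exons overlap Cd37 and Yap1 exons overlap Gm20416 on the opposite strand, and Lats2 exons overlap Gm49361, in GENCODE M21; Cd37 was at 3 to 24 in all libraries. The alternatives were pseudocounts of 0.5 and 5, other filters, equal-total scaling, no trend, 2 groups only, the block, replicates 2 and 3 alone, and leaving out each library.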

Additional observations from a re-analysis of the deposited data

How the results depend on the processing

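Every fall of Yap1, Wwtr1, Tead1, Tead2, Tead3, Vgll4, Ctgf and Cyr61 in N, against DP and against PP, kept its direction and its call in all 18 alternatives each. At the first step the number of members called lower ranged from 2 to 5 when 1 library was left out, against 4 with all libraries; it was 2 without PP replicate 2, PP replicate 3 or DP replicate 3. With the replicate block, 7282 genes were called in DP against PP, against 3944 without it, and 3 member rows were called higher, against 0; for the difference between steps the block called 8150 genes, against 4977. The block left 4 residual degrees of freedom in place of 6, and it changed no member's call other than those given in the report. Directions reversed for differences near 0: Tead2 in DP against PP was -0.01 with equal totals, Lats1 in N against PP ranged from -0.14 to 0.07, and Lats2 in the difference between steps from -0.17 to 0.70, when 1 library was left out. Without division by gene length, Tead2 made up 56.4% of the summed Tead value in PP, 55.3% in DP and 24.7% in N, and Tead1 35.5%, 38.5% and 67.5%. Ctgf in N rests on an estimated 6 reads, so depth limits how low it can be placed. Groups of 3 libraries are too small for an outlier test.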
